A study of Mus musculus with 15 samples.

Results

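Intragenic H3K4me3 regions without YY1 are stretches of chromatin inside protein-coding genes that carried the promoter mark H3K4me3, lay away from the gene ends and overlapped no called YY1 peak. H3K4me3 peaks of 3 libraries of control cells were merged where they shared at least 1 bp, and merged regions with a peak in 2 or more libraries were kept. Regions were selected on the called H3K4me3 and YY1 peaks and on position: a member overlapped no peak of any of 3 control YY1 libraries, overlapped a protein-coding span and lay more than 1000 bp from both ends of every such span. The rule selected 2292 of 16653 H3K4me3 regions (13.8%). H3K4me3, YY1 and the distance to a gene end were used by the rule, so their values are given as a description.

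The cells were HPC-7, a multipotent mouse blood progenitor line derived from embryonic stem cells, profiled by CUT&Tag, in which an antibody leads a transposase to cut and tag nearby DNA. SMC3 was profiled in cells named shYY1, which carry a short hairpin RNA against Yy1. SMC3, H3K4me3 and YY1 were profiled in control cells, which the titles call WT and the descriptions call shLUC, with 3 libraries per target and about 150000 cells per reaction. The labels' protocol calls the 3 libraries biological replicates without naming separate cultures, so p-values measure only the spread between these libraries. All data come from 1 cell line. The descriptions of the first SMC3 library of each arm alone name Abcam, and every shYY1 description carries a number whose meaning is not given. No YY1 or H3K4me3 library of shYY1 cells and no IgG library was used, so how far YY1 fell in shYY1 cells is unknown and the members were defined in control cells only. The lists hold peak positions without scores or counts, so depth is unknown. They held 2631 to 3213 SMC3 peaks in shYY1 cells, against 2061 to 4595 SMC3 peaks, 16763 to 17895 H3K4me3 peaks and 3750 to 10699 YY1 peaks in control cells. All 13 early haematopoietic marker genes had H3K4me3 in their span, against 0 of 6 pluripotent, 0 of 4 erythroid, 0 of 4 lymphoid and 0 of 4 fibroblast or endothelial markers. Counting regions within 1000 bp of a gene end, which may lie outside the span, 1 erythroid and 1 lymphoid marker gene had H3K4me3, and so did 10 of the early haematopoietic ones.

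H3K4me3 is laid down around active transcription starts, mostly at the 5′ ends of genes. Inside genes it is found at alternative promoters, which give rise to shorter or tissue-restricted transcripts, at promoters of overlapping non-coding RNAs, and at lower levels at strong enhancers. YY1 is a zinc-finger factor that binds a short motif at many promoters and can bring distant DNA together, and SMC3 is a core subunit of the cohesin ring, which extrudes chromatin loops.

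RefSeq transcript starts fell inside some of the regions, and the 300 bases around a start (250 before and 50 after, GRCm38.p6, the assembly of mm10) show the range of sequence found there. The sequences of members were chosen because their host genes are named in the results, and because they run from starts rich in CpG to starts poor in it. Capitals mark each CpG dinucleotide, and every sequence is written 5′ to 3′ on the minus strand, the strand of these genes. Starts inside regions without YY1 are shown first. They lie in Stat5b, a transcription factor of cytokine signalling (chr11:100850532-100850831, 50 CpG), Foxp1, a forkhead factor (chr6:99028249-99028548, 44 CpG), Ldb1, an adaptor of blood transcription complexes (chr19:46045262-46045561, 41 CpG), Mecom, a stem cell zinc-finger factor (chr3:30013155-30013454, 9 CpG), and Gata1, the erythroid zinc-finger factor (chrX:7967861-7968160, 4 CpG).
Stat5b without YY1: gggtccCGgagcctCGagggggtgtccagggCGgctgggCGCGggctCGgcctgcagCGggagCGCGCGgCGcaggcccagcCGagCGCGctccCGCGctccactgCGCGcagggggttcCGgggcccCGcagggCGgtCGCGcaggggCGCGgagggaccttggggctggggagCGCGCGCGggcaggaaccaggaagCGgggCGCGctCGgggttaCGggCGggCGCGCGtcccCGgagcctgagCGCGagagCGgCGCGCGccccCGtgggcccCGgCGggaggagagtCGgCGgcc
Foxp1 without YY1: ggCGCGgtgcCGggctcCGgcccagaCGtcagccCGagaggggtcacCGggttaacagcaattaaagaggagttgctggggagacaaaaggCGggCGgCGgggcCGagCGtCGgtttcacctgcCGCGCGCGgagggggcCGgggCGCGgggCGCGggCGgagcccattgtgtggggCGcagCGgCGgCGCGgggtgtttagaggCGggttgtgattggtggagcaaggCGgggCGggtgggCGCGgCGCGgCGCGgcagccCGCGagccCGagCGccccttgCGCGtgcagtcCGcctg
Ldb1 without YY1: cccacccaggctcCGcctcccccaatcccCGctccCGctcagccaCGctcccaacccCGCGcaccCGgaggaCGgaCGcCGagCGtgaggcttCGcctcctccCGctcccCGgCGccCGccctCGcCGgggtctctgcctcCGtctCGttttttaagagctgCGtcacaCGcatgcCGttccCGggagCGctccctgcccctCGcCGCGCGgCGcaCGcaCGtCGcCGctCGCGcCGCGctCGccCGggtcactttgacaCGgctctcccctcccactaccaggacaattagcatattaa
Mecom without YY1: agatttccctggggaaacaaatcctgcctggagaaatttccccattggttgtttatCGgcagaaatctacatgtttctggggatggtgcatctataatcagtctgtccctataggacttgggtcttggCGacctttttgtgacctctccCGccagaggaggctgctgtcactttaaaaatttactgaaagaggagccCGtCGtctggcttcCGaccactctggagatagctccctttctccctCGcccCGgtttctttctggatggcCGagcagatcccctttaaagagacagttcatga
Gata1 without YY1: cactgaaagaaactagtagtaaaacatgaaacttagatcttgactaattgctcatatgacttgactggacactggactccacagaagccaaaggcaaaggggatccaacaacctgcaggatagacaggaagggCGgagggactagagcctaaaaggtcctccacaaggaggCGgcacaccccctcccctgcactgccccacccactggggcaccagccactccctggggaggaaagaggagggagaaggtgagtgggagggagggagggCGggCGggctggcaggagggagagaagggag
Starts inside intragenic H3K4me3 regions that did overlap YY1 are shown for comparison. They are another start of Ldb1, in the same gene as a member, (chr19:46039572-46039871, 23 CpG, YY1 in 2 of 3 libraries) and one of Idh1, isocitrate dehydrogenase (chr1:65179093-65179392, 23 CpG, YY1 in 3 of 3), picked after its sequence was seen because it holds the YY1 motif letters ATGGCG.
Ldb1 with YY1: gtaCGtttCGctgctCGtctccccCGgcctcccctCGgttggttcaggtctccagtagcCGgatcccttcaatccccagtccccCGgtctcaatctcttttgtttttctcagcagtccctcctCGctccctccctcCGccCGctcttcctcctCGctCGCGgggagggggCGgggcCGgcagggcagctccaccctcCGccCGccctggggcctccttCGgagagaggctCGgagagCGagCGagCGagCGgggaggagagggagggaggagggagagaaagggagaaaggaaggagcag
Idh1 with YY1: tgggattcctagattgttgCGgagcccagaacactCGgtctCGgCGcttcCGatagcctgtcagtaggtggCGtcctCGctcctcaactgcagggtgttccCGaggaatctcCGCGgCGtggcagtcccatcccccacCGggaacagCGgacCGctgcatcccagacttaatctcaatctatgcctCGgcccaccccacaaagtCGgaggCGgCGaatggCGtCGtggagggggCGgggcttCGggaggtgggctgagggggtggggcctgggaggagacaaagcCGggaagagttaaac
The Idh1 start is not typical of starts with YY1: over the genes of 8 lists, the letters were, on either strand, in 0 of 18 starts in members and in 1 of 15 starts in intragenic regions with YY1. The shares over all starts are given with the other motifs.

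The regions were short, and 4 of 5 other classes were called in all 3 libraries more often. Their median length was 550 bp (quartiles 389 and 781, range 193 to 2760), against 787.5 bp for intragenic regions with YY1 and 810 bp for regions at gene ends without YY1. In each library the lengths of all peaks that overlapped a region were summed. Peak lengths given for a region are such sums, so a value can join several peaks. Over members with a peak, the median was 511, 431 and 459 bp in the 3 H3K4me3 libraries, a mean of 467 ± 40.6 bp (SD, n = 3). The same mean was 713 ± 37.3 bp for intragenic regions with YY1, 731 ± 44.8 bp for gene ends without YY1 and 418 ± 35.8 bp for intergenic regions without YY1. All 3 libraries had a peak in 1829 members (79.8%) and 2 had one in the other 463. The share called in 3 libraries was 92.1% for intragenic regions with YY1, 94.3% for gene ends without YY1 and 75.7% for intergenic regions without YY1. Members were thus longer than intergenic regions without YY1 and shorter than the other classes named here, in each of the 3 libraries.

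Lack of a YY1 peak went with short length among intragenic H3K4me3 regions. No YY1 peak was called at 616 of 845 regions of up to 400 bp (72.9%), and the share fell with each step in length, to 57 of 247 regions over 1500 bp (23.1%). Of all intragenic regions, 2292 (55.6%) had YY1 in no library, 625 in 1, 728 in 2 and 477 in 3. The YY1 lists differed in size: with YY1 library 1, 2 or 3 alone, 2809, 2428 or 3617 intragenic regions had no YY1 peak, and those lists held 8469, 10699 and 3750 peaks. Weaker YY1 occupancy cannot be told apart from its absence in such lists, and peak length and depth were not separated. A YY1 peak counted at 1 bp of overlap, so a longer region had more bases where a peak could overlap it. How far this shaped the fall with length was not tested. Another 710 intragenic regions without YY1 were called in only 1 H3K4me3 library and lay just outside the rule, with a median length of 238 bp.

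**Figure D1:**
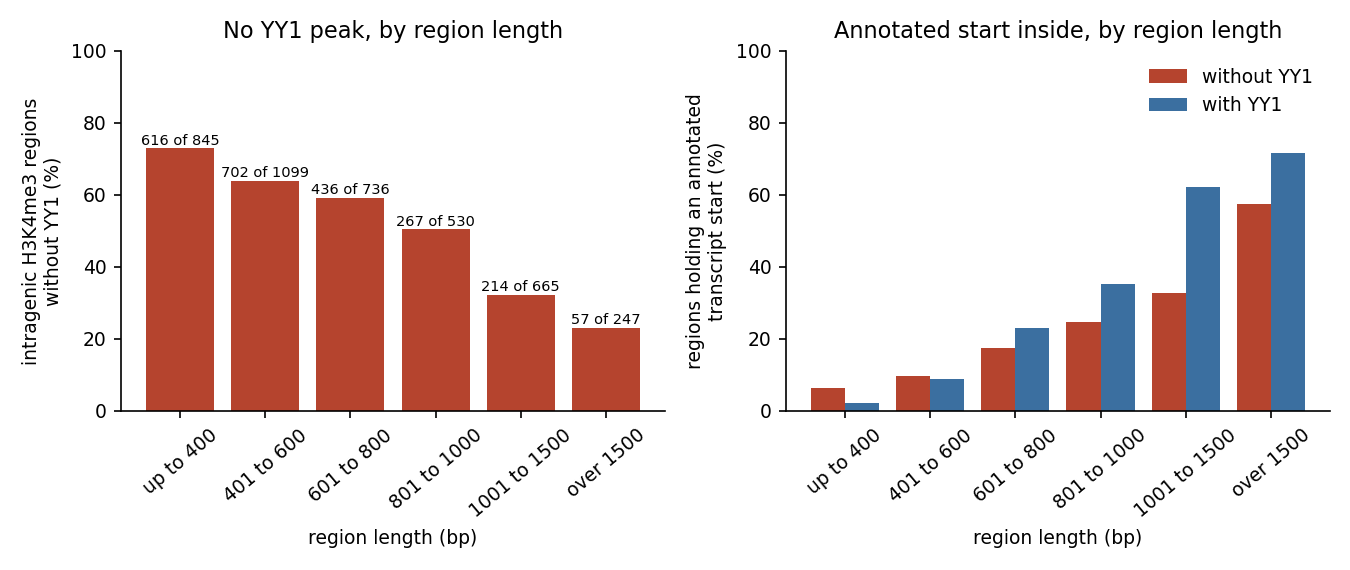
Left, the share of intragenic H3K4me3 regions with no YY1 peak, by region length in bp, with the number of regions above each bar. Right, the share of intragenic regions (chromosome 18 left out) that hold a RefSeq transcript start, without YY1 (red) and with YY1 (blue). The left share was 72.9% up to 400 bp and 23.1% over 1500 bp; on the right, regions with YY1 held a start more often in every length class over 600 bp.

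Most members lay far from the ends of protein-coding genes, the only ends counted here. The median distance to the nearest end was 12705 bp (quartiles 3618 and 36002), and 1268 members (55.3%) lay more than 10000 bp away. The farthest, 607596 bp from an end, was in Pde4d. At the 1000 bp limit, the nearest members inside it were in Nectin3 (1004 bp) and Plcb4 (1009 bp), and the nearest regions left out were in Cmas (997 bp) and Lrch4 (995 bp). For 1813 members in 1 gene of known strand, the midpoint lay at a median 34.4% of the span from the 5′ end, 20231.5 bp into the gene. The first 10% of the span held 328 of them (18.1%) and the last 10% held 62 (3.42%). Intragenic regions with YY1 were placed much alike, at a median 33.3% of the span with 17.1% in the first 10% (n = 1487).

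**Figure D2:**
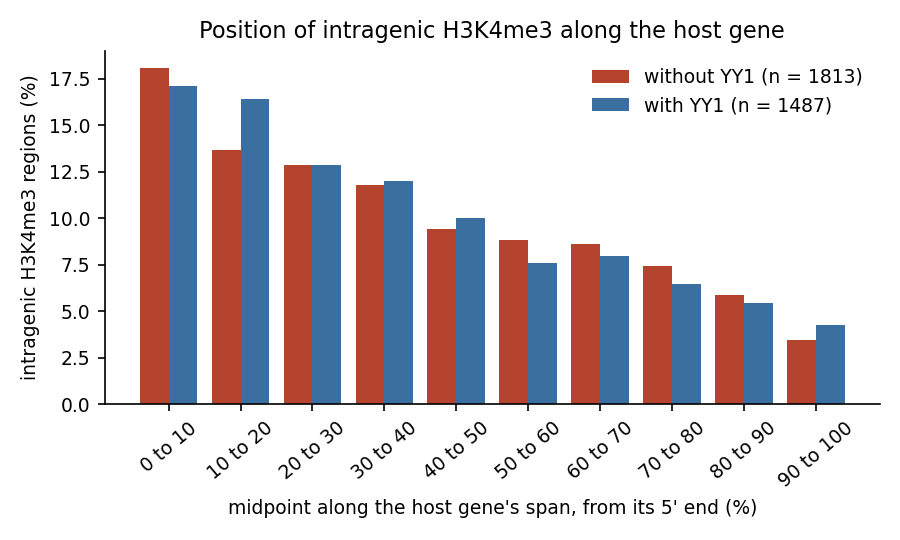
The share of intragenic H3K4me3 regions in each 10% of the host gene's span, counted from its 5′ end, without YY1 (red, n = 1813) and with YY1 (blue, n = 1487). Both fall along the gene, and members go from 18.1% in the first 10% to 3.42% in the last.

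Members often had another H3K4me3 region close by. A further region lay within 1000 bp of 585 members (25.5%), against 236 intragenic regions with YY1 (12.9%) and 1083 regions at gene ends without YY1 (34.3%). The neighbour was another member in 227 cases, an intragenic region with YY1 in 147, a gene end with YY1 in 129 and a gene end without YY1 in 82. The nearest YY1 peak lay at a median distance of 22541 bp, and within 1000 bp of 209 members (9.12%). A gap of 51 bp was the shortest.

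Transcript starts were annotated inside a minority of members. The table of starts covers every chromosome used except 18, which leaves 2222 members. A start fell in 340 of them (15.3%), against 600 of 1782 intragenic regions with YY1 (33.7%), 52.4% of gene ends without YY1 and 6.87% of intergenic regions without YY1. Length went with this share: it was 6.23% without YY1 and 2.24% with YY1 up to 400 bp, and 57.4% and 71.7% over 1500 bp. Over 1000 and up to 1500 bp it was 32.9% without YY1 and 62.0% with YY1. A start lay inside or within 1000 bp of 560 members (25.2%), and the other 1662 (74.8%) had none so near. The members held 401 starts, 356 of protein-coding genes and 45 of long non-coding RNAs. Of the 3881 protein-coding starts that lie more than 1000 bp from every gene end, 356 (9.17%) fell in members, 669 (17.2%) in intragenic regions with YY1, and 2611 (67.3%) had no H3K4me3 region. Where a member held a single start, the H3K4me3 summit nearest to it lay downstream in 69.7%, 66.2% and 64.9% of cases in the 3 libraries. The median offset was 69, 52 and 60 bp. At intragenic regions with YY1 the median was 53.5, 37 and 38 bp, smaller than at members in each library. At gene ends without YY1 it was 95, 68 and 56 bp, larger than at members in libraries 1 and 2. A larger offset was thus not particular to members.

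The sequence around the starts differed in composition between classes. Starts in members had a median of 16 CpG dinucleotides per 300 bases (quartiles 8 and 26, n = 401), against 22 in intragenic regions with YY1 (quartiles 13 and 29, n = 773), 21 at gene ends without YY1 and 8 in intergenic regions without YY1. Starts with no H3K4me3 region had a median of 4. The YY1 motif letters ATGGCG, searched on both strands, were in 27 of 401 starts in members (6.73%), 131 of 773 in intragenic regions with YY1 (16.9%) and 8.93% of all 32851 starts. Among starts with 10 to 19 CpG the letters were in 5.36% of those in members and 20.4% of those with YY1, and among starts with 20 or more in 18 of 163 in members and 85 of 439 with YY1 (19.4%). Under 10 CpG the shares were 2.38% and 2.44%. The core letters ATGGC, which the longer motif contains, were in 29.4% of starts in members, 36.5% with YY1 and 40.5% of all starts.

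Letters of other factors were counted the same way. The ETS letters CCGGAAG were in 9.73% of starts in members, 17.1% with YY1 and 8.86% of all starts. The RUNX letters TGTGGT were in 11.7%, 12.2% and 16.8%, the GATA letters AGATAA in 7.23%, 4.92% and 11.2%, and the TATA box letters TATAAA in 4.49%, 5.05% and 13.6%, in the same order. A match describes these letters and does not show binding, and a window without them says nothing about the factor.

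**Figure D3:**
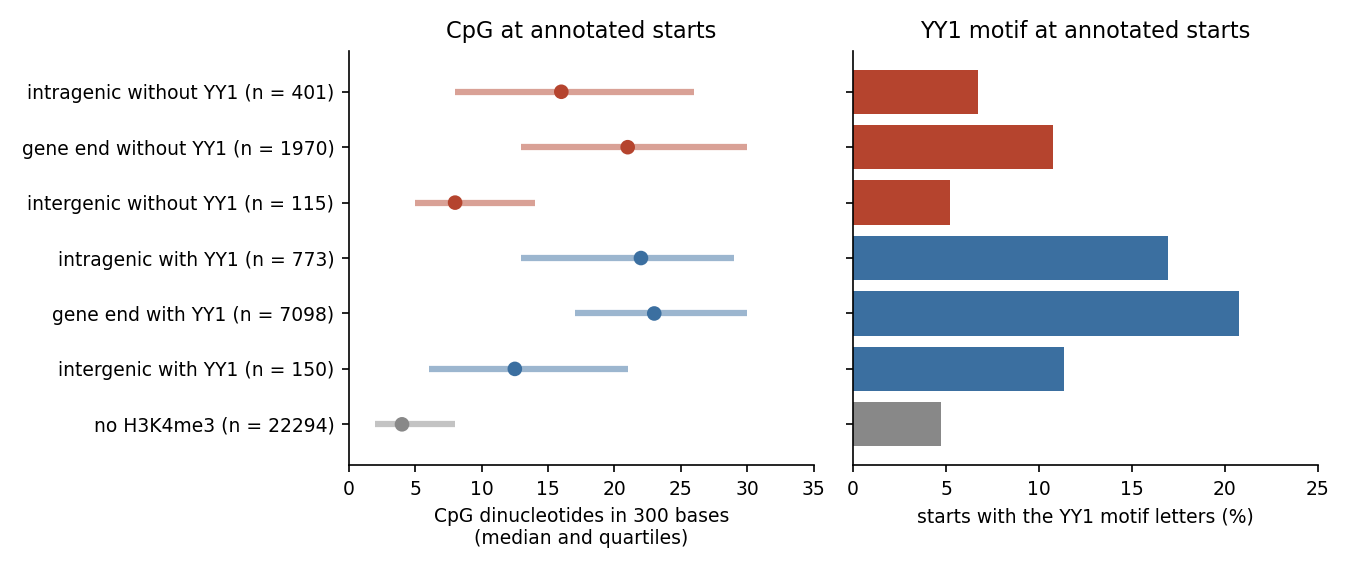
Left, CpG dinucleotides in the 300 bases around RefSeq starts, as median (point) and quartiles (line), by class of H3K4me3 region. Right, the share of those starts that hold the YY1 motif letters. Red marks classes without YY1, blue classes with YY1 and grey starts without an H3K4me3 region; starts in members had a median of 16 CpG and 6.73% held the letters.

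The members lay in 1728 of 21887 protein-coding genes (7.90%). Of genes with an H3K4me3 region at an end, 1029 of 10123 held one (10.2%), and the other 699 hosts (40.5% of hosts) had none at either end. Hosts were long: their median span was 61869.5 bp, against 15435 bp for other genes. Among genes with H3K4me3 at an end, 2.37% of those up to 10000 bp and 48.4% of those over 300000 bp held a member. Of those 1029 hosts, 531 (51.6%) had a YY1 region at an end, against 62.1% of the other genes with H3K4me3 at an end. Here a YY1 region had to be called in 2 or more control YY1 libraries, unlike in the rule for members. A single member was found in 1318 hosts, 2 in 293 and 3 or more in 117. Gene lists below were chosen with earlier results of these data known, and their counts are given beside these shares and the median span of the genes, without a test. As the share of hosts rose with span, a count in a list of long genes cannot be told apart from their length.

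Of 28 transcription factors of blood stem and progenitor cells, 15 held a member (53.6%) and together they held 25; 26 of the 28 had H3K4me3 somewhere in the span, and the median span of the list was 41685.5 bp. The hosts were Runx1, Lmo2, Fli1, Erg, Gata2, Meis1, Myb, Cbfa2t3, Ldb1, Bcl11a, Mecom, Nfe2, Mef2c, Lhx2 and Zbtb16. Fli1, an ETS factor of blood and endothelium, held a region at chr9:32540023-32541804 with H3K4me3 peaks of 1782, 1700 and 1345 bp in libraries 1 to 3, and a small one beside it of 322, 324 and 262 bp. The longer region lay 1628 bp from the nearest gene end, and none of the 3 H3K4me3 regions in Fli1 overlapped YY1. In Erg, its close relative, 3 members followed each other with gaps of 281 and 875 bp, and the one at chr16:95458033-95459352 held an annotated Erg start and had peaks of 1301, 608 and 784 bp. The remaining members had peaks of 507, 451 and 590 bp, and 521, 482 and 388 bp. Thus 1 library gave a much greater summed peak length at the Erg start, while the libraries were closer at Fli1.

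Lmo2, which bridges DNA-binding factors in blood progenitors and is known for several promoters, held 1 member at chr2:103970317-103971459 with peaks of 1122, 1075 and 1121 bp. The nearest YY1 peak was 686 bp away, and the nearest other H3K4me3 region, 393 bp away, overlapped YY1. Ldb1, its binding partner, had 3 H3K4me3 regions. The one whose start is printed above, at chr19:46045018-46046149, had peaks of 975, 1131 and 1130 bp and no YY1; a second member at chr19:46042060-46042625 had no peak in library 1 and peaks of 532 and 234 bp in the others; the last was called with YY1. Within 1 gene, then, annotated starts lay in H3K4me3 regions with and without a YY1 peak, and the second member lay between them.

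Mecom makes a long protein from its outer promoter and a short form, Evi1, from inner ones. Its member at chr3:30012824-30013513 held an annotated start and had peaks of 690, 591 and 638 bp, and the nearest YY1 peak was 340420 bp away. Gata2, needed for stem cell upkeep, held a region at chr6:88199340-88199802 with peaks of 463, 413 and 297 bp, 251 bp from another H3K4me3 region that had YY1. Runx1, the master regulator of definitive blood, held a region of 813, 852 and 758 bp at chr16:92823561-92824453, 1621 bp from the 5′ end of the gene. Only 382 bp separated it from an H3K4me3 region at a gene end. Smaller peaks lay in Myb (416, 324 and 380 bp, and 384, 351 and 246 bp) and Meis1 (524, 295 and 337 bp, and 252, 184 and 0 bp). The second Myb region lay 292 bp from an H3K4me3 region at a gene end. The regions in Bcl11a, Zbtb16 and the smaller ones of Meis1, Mef2c and Ldb1 each lacked a peak in 1 library.

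**Figure D4:**
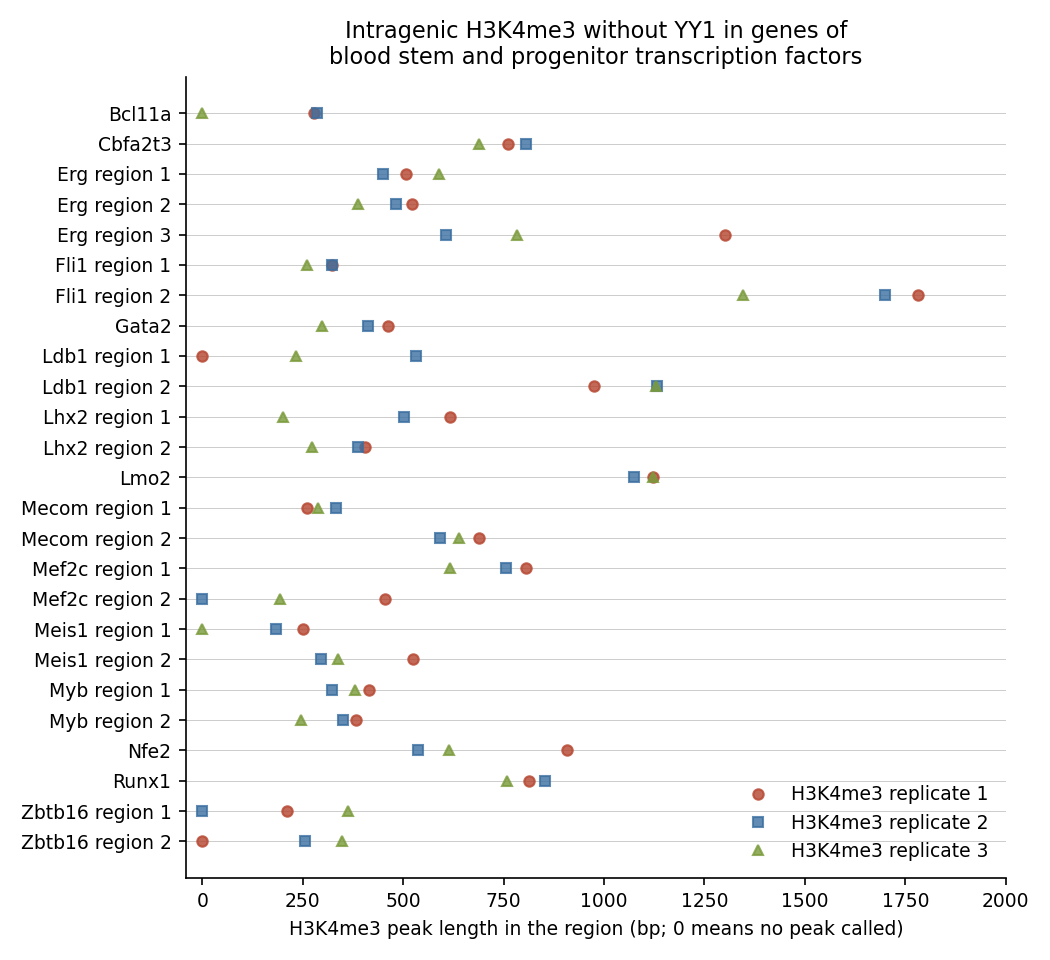
Summed H3K4me3 peak length per region in bp in each of 3 control libraries (circle, square and triangle for replicates 1, 2 and 3) at the 25 members in genes of blood stem and progenitor transcription factors. A value of 0 means that no peak was called. The region in Fli1 with peaks of 1782, 1700 and 1345 bp is the longest, and 6 regions lack a peak in 1 library.

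Lymphoid and Ikaros-family factors were hosts in 7 of 19 genes (median span 93743 bp), with 20 members. Foxp1 alone held 7, of its 9 H3K4me3 regions. The longest, at chr6:99027036-99028966, covered the Foxp1 start printed above and had peaks of 1931, 1574 and 1915 bp; it lay 494746 bp from the 5′ end of the gene and 159753 bp from the nearest YY1 peak. Tcf4, an E protein, held 4, Bach2 and Gata3 3 each, and Ikzf1, Ikzf2 and Satb1 1 each. Gata3, known for T cell fate, carried an annotated start at chr2:9878397-9878957 with peaks of 561, 554 and 549 bp, nearly equal in the 3 libraries. There the nearest YY1 peak was 656 bp away, and an intragenic H3K4me3 region with YY1 lay 262 bp away. Ikzf1, the gene of Ikaros, had peaks of 383, 459 and 307 bp over an annotated start at chr11:11690128-11690646.

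Genes of mature blood lineages were hosts in 4 cases. Of 19 erythroid, megakaryocyte and mast cell genes (median span 16587 bp), Gata1, Epb41 and Hdc were hosts, and of 14 granulocyte and monocyte genes (3707 bp), Fcgr3 was the single one. Gata1 has an outer promoter used in testis and an inner one used in blood cells. Both of its H3K4me3 regions were members, and the one at chrX:7967570-7968251, 8753 bp into the gene, held an annotated Gata1 start and had peaks of 407, 462 and 552 bp. Neither end of Gata1 had H3K4me3. Hdc, histidine decarboxylase of mast cells and basophils, had peaks of 1004, 913 and 912 bp over an annotated start at chr2:126618460-126619469. Fcgr3, an IgG receptor of myeloid cells, had peaks of 1242, 1232 and 1229 bp over an annotated start at chr1:171058439-171059698. At both of these genes the lengths differed little between libraries.

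Cytokine signalling genes were hosts in 6 of 26 cases (median span of the list 26572.5 bp), namely Flt3, Il6ra, Il7r, Jak2, Stat3 and Stat5b. Stat5b held 3 members. The CpG-rich start printed above lies in chr11:100849628-100851249, with peaks of 1106, 1342 and 1415 bp, while a second annotated start with 7 CpG lies in chr11:100822424-100822740, with peaks of 309, 191 and 194 bp. Flt3, the receptor of early progenitors, held peaks of 723, 615 and 708 bp at chr5:147366107-147366835 and of 441, 252 and 257 bp nearer its 5′ end.

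Chromatin regulators were hosts in several lists. Of 20 epigenetic regulators mutated in myeloid disease (median span 79729 bp), Bcor, Dnmt3a, Kmt2d and Jarid2 were hosts, with 13 members. Bcor, a corepressor of a Polycomb complex, held 9 members among 12 H3K4me3 regions, the longest of 1193, 1399 and 1232 bp at chrX:12086901-12088634 and of 1644, 1527 and 1247 bp at chrX:12127812-12129492. No annotated start lay in any of the 9. Dnmt3a, a de novo DNA methyltransferase, held 2, with peaks of 799, 728 and 725 bp and of 1161, 813 and 1026 bp. In Kmt2d, an H3K4 methyltransferase, the peaks were 1536, 0 and 501 bp, so the libraries did not give a stable length there. Setd1b, Kdm4b and Kdm2b were the hosts among 24 methylation enzymes (median span 62692 bp).

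Genes of YY1, INO80 and Polycomb complexes were hosts in 6 of 34 cases (median span 18962.5 bp), and cohesin genes in 3 of 16 (45997.5 bp). Yy1 itself held a short member at chr12:108794501-108794812, with peaks of 309, 251 and 258 bp, 209 bp from a YY1 peak. Pcgf2, a ring-finger subunit of Polycomb complexes, held one of the 10 longest members at chr11:97698813-97700789, with peaks of 1952, 1560 and 1354 bp over an annotated start. Phc2, a Polyhomeotic subunit, held 5. Stag1 and Stag2, alternative subunits of cohesin, and Nipbl, its loader, each held 1, with longest peaks of 546, 411 and 498 bp.

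Genes known for internal promoters were hosts in 11 of 25 cases (median span 118850 bp), with 31 members. Pde4d, a cAMP phosphodiesterase with many promoters, held 11 of its 14 H3K4me3 regions as members, more than any other gene, and had no H3K4me3 at either end. Its peaks included 1201, 1165 and 1172 bp at chr13:109902457-109903672 and 1053, 1069 and 1043 bp at chr13:109685364-109686440, which varied little, and 1309, 439 and 519 bp at chr13:109229577-109230887, which varied more. No annotated Pde4d start lay in any of its members. Only the one at chr13:109440833-109441322 held an annotated start, that of Gm32703. The others lay 102801 to 246669 bp from the nearest annotated start. Abl1, a tyrosine kinase with alternative first exons, had peaks of 1546, 1314 and 731 bp over 2 annotated starts at chr2:31759675-31761220. Pde4b held 4, Gnas 2 and Nr3c1, the glucocorticoid receptor, 1.

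Signalling and adhesion genes were also hosts. They numbered 12 of 31 among Ras, PI3K, phospholipase C and PKC genes (median span 74788 bp), and 5 of 23 among adhesion genes (69104 bp). Pik3r1, a regulatory subunit of PI3K, had peaks of 975, 769 and 1056 bp at chr13:101693960-101695063, and Selplg, a selectin ligand of white blood cells, had peaks of 783, 805 and 752 bp at chr5:113829894-113830701. Among neural and muscle genes, Grin1 and Ryr1 were hosts out of 22. No ribosomal protein gene of 48 and no pluripotency gene of 10 was a host. The median span was 3310.5 bp for the ribosomal protein genes and 272980 bp for the neural and muscle genes, of which 3 had any H3K4me3 in the span.

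The longest members were found in Mxi1, Adgrg1, Ccm2, Gse1, Rai1, Pcgf2, Foxp1, Rusc1, Sgms1 and Lrrc1. Mxi1, a partner of Max that opposes Myc, had peaks of 2727, 2033 and 2314 bp at chr19:53311619-53314378. Adgrg1, an adhesion receptor of stem cells, had peaks of 2221, 1846 and 1504 bp over an annotated start at chr8:94976837-94979057. The hosts with the most members after Pde4d were Bcor with 9, Ttc28 with 8, Foxp1 with 7, and Zfhx3, Gse1, Frmd4a and Baz2b with 6 each. Zfhx3, a homeodomain factor, had peaks of 1159, 1136 and 1215 bp over an annotated start at chr8:108714290-108715514.

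The cohesin subunit SMC3 was not used by the rule and could therefore be tested. SMC3 peaks were rare at members in both arms. In shYY1 cells they lay on 1, 6 and 3 of 2292 members in libraries 1 to 3 (0.0436%, 0.262% and 0.131%), and in control cells on 11, 15 and 2 (0.480%, 0.654% and 0.0873%). The arms overlapped, since control library 3 lay below 2 of 3 shYY1 libraries; that list was also the shortest, with 2061 peaks. The mean share was 0.145 ± 0.110% in shYY1 cells and 0.407 ± 0.291% in control cells (SD, n = 3 each), a difference of -0.262 percentage points (exact two-sided permutation p = 0.3, where the smallest possible p is 0.1). With the same number of longest peaks taken from every library the difference was 0.0145 points, in the other direction. A difference between the arms was not detectable.

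SMC3 had a peak in at least 1 of 6 libraries at 26 members (1.13%), against 32.4% of all H3K4me3 regions and 1.71% of those without YY1. At intragenic regions with YY1 the count was 867 of 1830 (47.4%). Peaks in 2 or more libraries of an arm were called at 1 member in shYY1 cells (15.4% of all H3K4me3 regions and 0.0995% of those without YY1) and at 6 in control cells (20.4% and 0.256%). No member had SMC3 in all libraries of one arm and in none of the other, against 0 of all regions for shYY1 alone (0.00%) and 35 for control alone (0.210%). As no member had SMC3 in all 3 libraries of either arm, this count could only be 0 and shows no difference between arms. All 3 control libraries had SMC3 at 1 of 3159 gene ends and 1 of 1583 intergenic regions without YY1. All 3 shYY1 libraries had it at 0 and 2 of these.

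Members were compared with the other regions without YY1 by the log2 odds ratio of holding an SMC3 peak, computed in every library after adding 0.5 to all 4 counts. Against intergenic regions without YY1 it was -2.86, -1.60 and -0.90 in shYY1 libraries 1 to 3, and -0.77, -1.32 and -1.38 in control libraries. It was thus below 0 in 6 of 6 libraries, with a mean of -1.47 (SD 0.75, n = 6; exact two-sided sign-flip permutation p = 0.03125, the smallest possible, and 0.09375 after Benjamini-Hochberg adjustment over 3 tests). SMC3 was therefore less frequent at members than at intergenic regions in every library, but the difference did not pass the adjusted threshold of 0.05. The ratios rest on few regions. SMC3 lay on 7, 13 and 4 of 1583 intergenic regions in shYY1 libraries 1 to 3, and on 13, 26 and 4 in control libraries. Against gene ends without YY1 the ratio was -0.76, 0.26 and -0.64 in shYY1 libraries and -0.37, -0.52 and 0.46 in control libraries. Here the signs were mixed, below 0 in 4 of 6, with a mean of -0.26 (SD 0.50, n = 6; exact two-sided sign-flip permutation p = 0.25, adjusted 0.3), and the direction changed under other definitions of the regions.

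**Figure D5:**
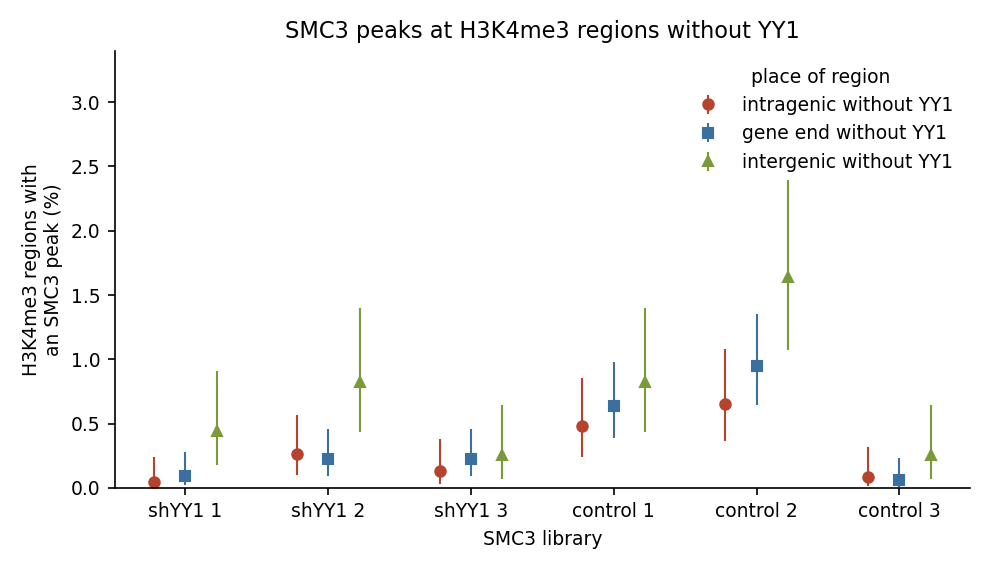
The share of H3K4me3 regions without YY1 that overlap an SMC3 peak, in each shYY1 library and each control library, for intragenic regions (red circles), gene ends (blue squares) and intergenic regions (green triangles). Bars are exact Clopper-Pearson 95% intervals for the count of regions only; intragenic shares run from 0.0436% to 0.654%, below the intergenic share in every library.

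The few members with SMC3 in 2 or more libraries of an arm can be named. Smtn, which encodes the smooth muscle protein smoothelin, held the single one called in both arms, at chr11:3535437-3535962, with SMC3 in libraries 1 and 2 of shYY1 and in libraries 1 and 2 of control, and with H3K4me3 peaks of 393, 453 and 483 bp. The other 5 had SMC3 in 0 shYY1 and 2 control libraries and lay in Cuedc1, Zfp595, Prkce, Slc24a3 and Lhpp. At Prkce, a protein kinase C, the region at chr17:86444851-86445364 had H3K4me3 peaks of 293, 495 and 464 bp and lay 143150 bp from the nearest YY1 peak. Mbd5, Mgst2, Pakap and Pxn had SMC3 in 1 library of each arm. None of the 25 members in blood stem and progenitor factors had an SMC3 peak in any library. Over all 2292 members the share was 1.13%, so a count of 0 in so few regions does not set these genes apart.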

How the data were processed

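CUT&Tag peak lists of 12 of 15 libraries were used: SMC3 in shYY1 cells and SMC3, H3K4me3 and YY1 in control cells, 3 each. The 3 IgG libraries were not analysed here. The tools were, per the submitters' processing notes, MACS2 2.2.9.1, Picard 3.1.1, cutadapt 4.5 and Bowtie2 2.5.1, with build mm10; their settings and the peak threshold are not known here. The deposited lists give start, end and summit offset in bp, in no other unit, with no score. Starts were taken as counted from 0 and are printed counted from 1.

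Peaks were merged at 1 bp of overlap and regions in 2 or more H3K4me3 libraries kept. Genes and starts came from RefSeq, GRCm38.p6; a gene end is either end of a protein-coding span. Members and gene lists were chosen with earlier results of these data known. The result of 1 gene list is not reported here. Named genes are the hosts with the longest members of each list (up to 4), the 10 longest members, the 10 hosts with most members, members with SMC3 in 2 or more libraries of an arm, and the regions nearest the 1000 bp limit; other hosts of the lists, Mbd5, Mgst2, Pakap and Pxn were named after their values were seen. Shares were compared by exact permutation over 20 assignments of libraries, log2 odds ratios by 64 sign flips. Replicate numbers were taken as names only and did not pair the arms in the main test. Same-numbered libraries had deviations correlated at -0.00583, 0.0334 and -0.0283 over 6175 regions. Such values cannot show whether libraries were prepared together. Python 3.11.15, numpy 2.4.6, pandas 2.3.3, scipy 1.17.1 and matplotlib 3.10.9 were used, and the calculations were tested on simulated data. Intervals cover counting error only.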

Additional observations from a re-analysis of the deposited data

How the results depend on the processing

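The number of members ran from 1801 to 2923 under 11 other definitions, and the log2 odds ratio of SMC3 against intergenic regions stayed below 0 in all 21 alternatives (-2.20 to -0.60). It lost its unadjusted call when 1 SMC3 library was left out, at p = 0.0625, the smallest that 5 libraries allow, and without both libraries whose description names Abcam (-1.30, exact permutation p = 0.125, the smallest for 4). Over all leave-one-out settings it ran from -1.62 to -0.72, the latter without control YY1 replicate 2. Its weakest value, -0.60, came when only reproducible YY1 regions counted. The ratio against gene ends turned to 0.0128 with regions in 3 of 3 libraries, 0.0798 with a 2500 bp window and 0.25 with a 250 bp window either side of the midpoint, and ran from -0.41 to -0.01 when 1 library was left out. The difference between arms became 0.0145 points with equal numbers of longest SMC3 peaks, and -0.622 to -0.138 when 1 library was left out. Members with SMC3 in all control and no shYY1 libraries numbered 0 to 4 when 1 library was left out (4 without control SMC3 replicate 3, 1 without replicate 1) and 1 without the Abcam libraries. With a replicate block the difference stayed at -0.262 points with an exact permutation p of 0.5.

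The mean over libraries of the median summed peak length was 511 bp with regions in 3 of 3 libraries. It was 454.5 to 509 bp when 1 library was left out. The share with an annotated start was 17.98% in 3 of 3 libraries, 13.8% with a 2500 bp window, 13.7% with the ends of every annotated gene, 17.2% when only reproducible YY1 regions counted, 17.8% with H3K4me3 peaks within 1000 bp joined, and 15.3% to 16.9% when 1 library was left out; these were added after seeing the data. The 85 host genes in the lists became 76 in 3 of 3 libraries and 69 with a 2500 bp window. With that window cytokine genes fell to 2, Polycomb genes to 3 and adhesion genes to 3. Hosts among blood stem and progenitor factors fell from 15 to 12. The cause of these shifts was not tested. Peak lists without scores or counts cannot separate depth from occupancy, and members were defined in control cells, so YY1 and H3K4me3 in shYY1 cells were not measured.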

Other observations

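Hairpins of 7 microRNA genes overlapped 6 members. In Dnm1, a dynamin, a region at chr2:32317935-32318466 with H3K4me3 peaks of 305, 532 and 188 bp overlapped the hairpins of Mir199b and Gm23363. In Eml2, a region at chr7:19180838-19181801 with peaks of 836, 864 and 920 bp contained Mir330. The other hairpins were those of Mir1895 in Cxxc4, Mir5619 in Nudt9, Mir7228 in Syna and Mir8104 in Ppm1h. The mature sequences of Gm23363 and Mir330, which lie inside these regions, are printed from RefSeq, 5′ to 3′, with the seed (bases 2 to 8) in capitals.
miR-3154: cAGAAGGGgagucgggagcgga
miR-330-5p: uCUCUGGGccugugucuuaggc
miR-330-3p: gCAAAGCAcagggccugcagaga
The 3 seeds differ from one another, and no microRNA level was measured.

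Some members lie in several genes at once. A single host was found for 2269 members, 2 hosts for 21 and more for 2. The largest number of hosts of a member was 24, in a cluster of nested protocadherin genes that share their last exons.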
